A study of Mus musculus with 12 samples.

Results

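The genes described here are 42 mouse genes of the cell cycle and of DNA replication, taken by symbol from the array's annotation. Of these, 15 were classed as genes of the preparation and course of S phase and 27 as mitotic genes. Each gene was read from its single-symbol probe set of highest mean, and 41 of the 42 had one, out of 22180 genes on the arrays. Ccnb1, which codes for cyclin B1, had no probe set that was named with that symbol alone, so it has no value below. All 41 were bright enough to be tested among 16635 genes, and 35 of them lay above the median brightness of all genes.

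The samples were 12 arrays in 4 groups of 3. Colorectal tumors had been raised in mice with azoxymethane and dextran sulfate sodium, a carcinogen followed by a colitis-inducing agent, and every group carried that treatment. Areas of tumor and areas of stroma were cut apart by laser from paraffin sections. Mice were either wild type (Stat3wt) or lacked the transcription factor STAT3 in myeloid cells through a conditional deletion (Stat3dm). The groups are Stat3wt tumor, Stat3wt stroma, Stat3dm tumor and Stat3dm stroma. Each sample pooled 2 tumors of 1 mouse, and no source used here gives the strain, the age, the driver of the deletion or the way the areas were chosen. Nor is it stated whether a tumor and a stroma sample of the same number came from the same mouse. The study asked which changes in the stroma depend on STAT3 in myeloid cells. P-values measure the spread between these samples.

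A dividing cell first licenses its replication origins by loading the MCM helicase, then fires them and copies its DNA in S phase, and later builds a spindle that separates the chromosomes in mitosis. Transcription of the first wave of genes is driven by E2F factors when cyclin-dependent kinases inactivate the retinoblastoma proteins. The second wave is held down in resting cells by the DREAM complex and is switched on by B-Myb and FOXM1. In the gut, most divisions take place in epithelial cells of the crypt and, in a tumor, in the tumor epithelium, while immune cells and fibroblasts of the stroma can divide as well.

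The promoters of these genes were searched for motifs of the 2 waves. RefSeq windows of the GRCm38.p6 build, from 250 bases before to 50 bases after a start, were used for 35 of the 42 genes (36 windows), with none for Aurkb, Ccna2, Cdc25c, Foxm1, Kif20a, Mcm4 and Tpx2. Each window was searched on both strands for an E2F site (TTTNGCGC or TTTCCCGC), a CHR element (TTTGAA or TTCGAA), which the DREAM complex binds, and a CCAAT box (CCAAT), which the factor NF-Y binds. An E2F match was in 7 of 15 windows of S-phase genes (46.7%), in 1 of 21 windows of mitotic genes (4.76%) and in 2.39% of all 32851 windows. A CHR match was in 2 of 15 windows of S-phase genes (13.3%), in 16 of 21 of mitotic genes (76.2%) and in 19.2% of all windows. A CCAAT match was in 10 of 15 windows of S-phase genes (66.7%), in 17 of 21 of mitotic genes (81.0%) and in 37.4% of all windows. Both a CHR and a CCAAT match were in 2 of 15 S-phase windows (13.3%) and 15 of 21 mitotic windows (71.4%), against 7.52% of all windows. In the members' windows, matches of different motifs overlapped 1 time, in Mcm7. A match is a run of letters and not a shown binding site. In the windows of Birc5, Ccne1, E2f1, Mad2l1, Nuf2 and Tyms no motif matched. Only the CCAAT box matched in those of Ccnb1, Cenpe, Pcna, Rrm1 and Rrm2 and in 1 Mcm7 window. The windows below, which hold motifs of their wave, are of the S-phase genes Cdc6 and Mcm3 and the mitotic genes Cdc20, Cdk1 and Top2a. They read 5′ to 3′ along the gene, with the matches on either strand in capitals.
Cdc6, chr11:98907901-98908200, plus strand: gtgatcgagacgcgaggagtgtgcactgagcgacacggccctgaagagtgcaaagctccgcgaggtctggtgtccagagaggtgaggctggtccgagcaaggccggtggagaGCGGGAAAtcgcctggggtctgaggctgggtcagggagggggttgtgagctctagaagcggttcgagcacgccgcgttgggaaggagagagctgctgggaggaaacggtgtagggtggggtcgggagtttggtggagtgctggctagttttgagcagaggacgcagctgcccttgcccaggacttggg
Mcm3, chr1:20820263-20820562, minus strand: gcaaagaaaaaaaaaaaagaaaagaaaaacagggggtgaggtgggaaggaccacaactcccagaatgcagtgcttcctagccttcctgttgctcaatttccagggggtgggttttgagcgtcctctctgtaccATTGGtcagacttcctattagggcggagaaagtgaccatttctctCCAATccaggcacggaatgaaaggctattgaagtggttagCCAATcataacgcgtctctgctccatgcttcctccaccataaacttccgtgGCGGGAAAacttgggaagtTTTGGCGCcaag
Cdc20, chr4:118437294-118437593, minus strand: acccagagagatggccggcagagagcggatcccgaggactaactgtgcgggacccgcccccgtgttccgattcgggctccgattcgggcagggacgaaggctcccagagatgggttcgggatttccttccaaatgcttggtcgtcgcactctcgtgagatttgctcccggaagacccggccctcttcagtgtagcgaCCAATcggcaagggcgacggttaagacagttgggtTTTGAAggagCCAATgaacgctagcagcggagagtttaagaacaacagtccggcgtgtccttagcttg
Cdk1, chr10:69352863-69353162, minus strand: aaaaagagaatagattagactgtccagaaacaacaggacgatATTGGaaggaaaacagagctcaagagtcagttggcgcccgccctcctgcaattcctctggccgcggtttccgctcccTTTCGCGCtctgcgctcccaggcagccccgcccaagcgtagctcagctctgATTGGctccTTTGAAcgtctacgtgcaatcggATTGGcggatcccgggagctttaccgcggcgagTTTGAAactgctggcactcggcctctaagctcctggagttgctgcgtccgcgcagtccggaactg
Top2a, chr11:99024140-99024439, minus strand: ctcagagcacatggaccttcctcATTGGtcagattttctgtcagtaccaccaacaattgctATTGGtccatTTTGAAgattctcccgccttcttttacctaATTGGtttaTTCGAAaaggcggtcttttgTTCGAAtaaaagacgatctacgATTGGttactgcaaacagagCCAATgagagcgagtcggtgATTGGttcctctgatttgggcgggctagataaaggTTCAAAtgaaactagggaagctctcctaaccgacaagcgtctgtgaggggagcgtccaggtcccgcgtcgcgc
The capitals mark 1 E2F match in the Cdc6 window, and E2F and CCAAT matches in the Mcm3 window. They mark CHR and CCAAT matches in the Cdc20 and Top2a windows. Cdk1 was the only mitotic gene among the 21 windows with a match of all 3 motifs.

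The arrays differed in the spread of their signals, and most of these genes are bright ones. The SD of all log2 signals of an array ran from 1.60 to 1.91, and was widest in Stat3wt tumor 3 (1.91) and Stat3dm tumor 3 (1.85). The labels were checked on marker genes. Of 15 epithelial markers all lay below 0 in stroma and 7 passed an adjusted p of 0.05, with a median log2 difference of -1.01 over both genotypes. Of 8 leukocyte markers 6 passed as higher, of 10 fibroblast markers 3 and of 7 endothelial markers 3, against 2.55% of all genes in either direction. Of 7 smooth muscle markers 0 passed, though all 7 lay above 0, and 1 fibroblast marker lay below 0. Epithelial markers were still bright in stroma, with a summed signal of 2837 to 7458 in Stat3dm stroma against 6830 to 11197 in Stat3dm tumor. The corresponding ranges were 3828 to 4922 in Stat3wt stroma and 7308 to 11005 in Stat3wt tumor. In such bulk tissue, fewer cells of a type and less RNA per cell cannot be told apart.

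**Figure D1:**
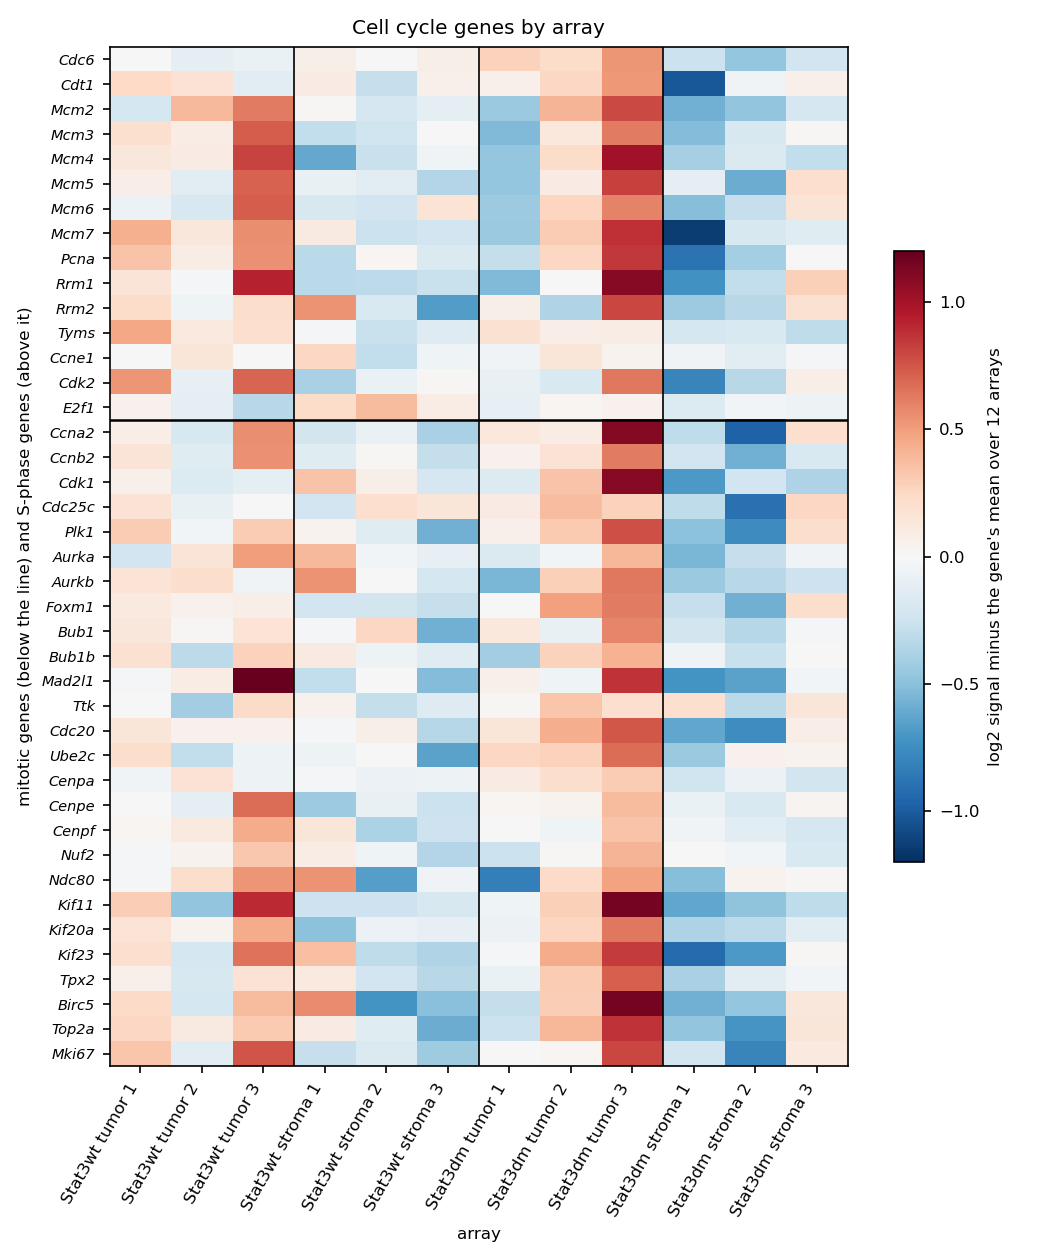
Each square is 1 of the 41 genes (vertical axis) on 1 of the 12 arrays (horizontal axis), coloured by its log2 signal minus that gene's mean over the 12 arrays. Stat3dm tumor 3 was the highest array for 28 of the 41 genes, and Stat3dm stroma 1 and 2 were the lowest for 14 and 10.

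Cell cycle genes lay lower in stroma than in tumor, by a modest amount each. Averaged over the genotypes (6 tumor against 6 stroma arrays), 40 of 41 genes had a stroma signal below that of tumor, with a median log2 difference of -0.37. Among all genes tested 53% lay below 0, with a median of -0.027. The one gene with a higher mean in stroma was E2f1. No single gene passed an adjusted p of 0.05 (limma, Benjamini-Hochberg over 16635 genes), where 2.55% of all genes did. The smallest adjusted p was 0.0941, of Kif20a. At an unadjusted p under 0.05, 19 of 41 genes were lower in stroma, against 15.1% of all genes. The groups did not overlap, with all 6 stroma arrays below all 6 tumor arrays, for Kif20a and Tyms, against 1.33% of all genes.

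The calls turned on whether samples of 1 number were treated as a pair. With genotype and number as a fixed block, 13 of 41 genes passed as lower in stroma, against 11.3% of all genes. These were Ccna2, Cdc20, Kif11, Kif20a, Kif23, Mad2l1, Mcm4, Mcm7, Mki67, Pcna, Plk1, Rrm1 and Top2a. Without Stat3dm tumor 1, and with no block, 9 of the 41 genes passed, against 7.79% of all genes. Bright genes lay below 0 more often in general: with the dimmer 50% of all genes left out, 63.2% of the rest lay below 0, and so did 34 of the 35 cell cycle genes among them.

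**Figure D2:**
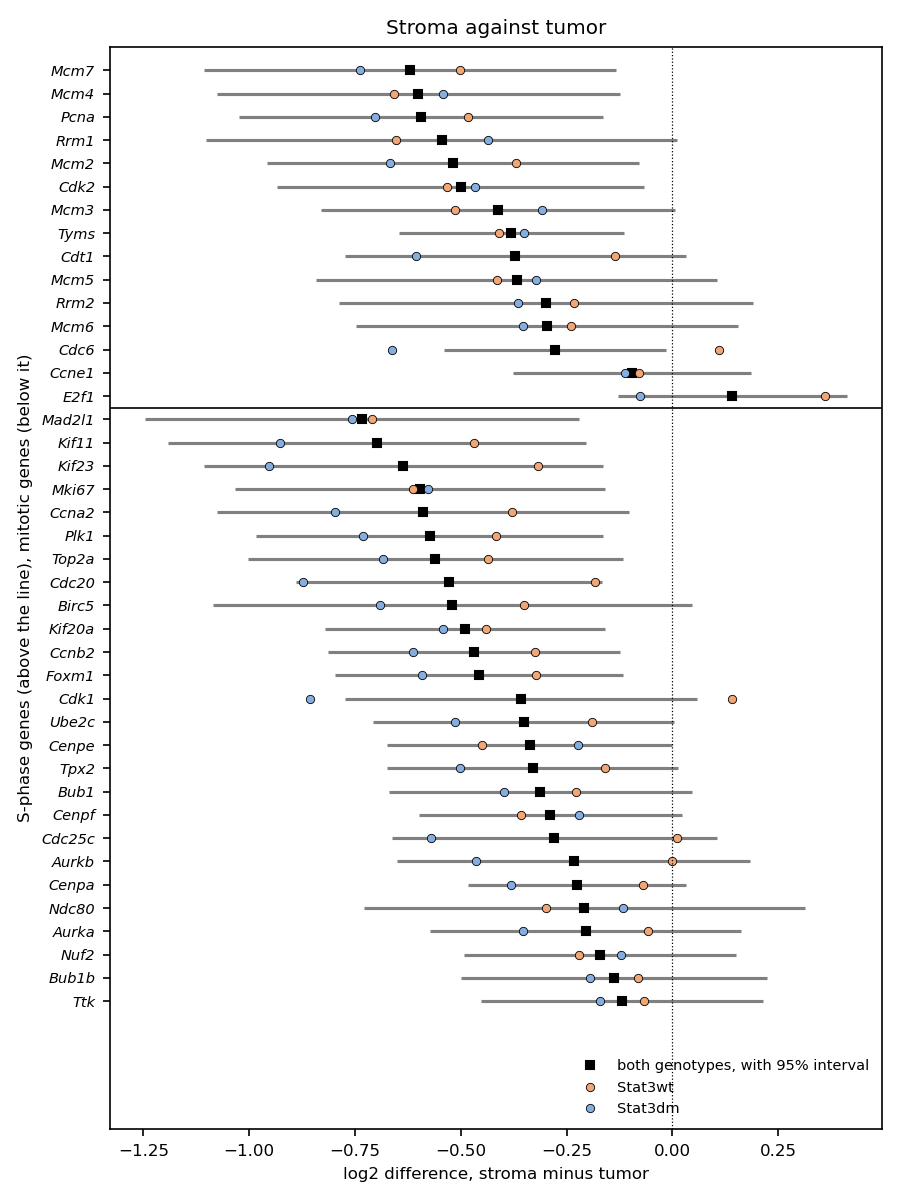
Log2 difference of stroma minus tumor (horizontal axis) for each of the 41 genes (vertical axis). Squares are the difference averaged over the genotypes with its 95% interval from limma, and circles are the difference within each genotype. Of the squares, 40 lie left of 0, and E2f1 lies right of it at 0.14.

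Origin licensing genes came first in the cycle. All 8 of them (Cdc6, Cdt1 and Mcm2 to Mcm7) lay below 0, with a median of -0.39, and none passed an adjusted p of 0.05. Mcm4, a subunit of the helicase that unwinds DNA, had log2 signals of 5.44, 5.40 and 6.11 on the Stat3wt tumor arrays and 4.84, 5.52 and 6.31 on the Stat3dm tumor arrays. Its stroma signals were 4.68, 5.04 and 5.25 in Stat3wt stroma and 4.90, 5.13 and 5.01 in Stat3dm stroma. In Stat3wt all 3 stroma arrays lay below all 3 tumor arrays, while in Stat3dm the low tumor 1 overlapped with stroma. Averaged over the genotypes it differed by -0.60 ± 0.22 (SE), with an adjusted p of 0.137, and -0.66 ± 0.31 (SE) in Stat3wt, where it turned to 0.033 with the array spread as a covariate. Mcm3, another subunit of this ring, with the E2F matches printed above, read 5.88, 5.77 and 6.41 on the Stat3wt tumor arrays and 5.16, 5.81 and 6.31 on the Stat3dm tumor arrays. Its signals were 5.39, 5.45 and 5.68 in Stat3wt stroma and 5.16, 5.49 and 5.70 in Stat3dm stroma. Tumor 3 was the highest array of either genotype, and Stat3dm tumor 1 was as low as the lowest stroma arrays. The averaged difference of Mcm3 was -0.41 ± 0.20 (SE), adjusted p 0.233. Cdc6, the ATPase that loads the ring onto origins, read 4.48, 4.35 and 4.39 on the Stat3wt tumor arrays and 4.75, 4.70 and 5.003 on the Stat3dm tumor arrays. Its stroma signals were 4.54, 4.47 and 4.54 in Stat3wt stroma and 4.21, 4.01 and 4.24 in Stat3dm stroma. In Stat3dm every stroma array lay below every tumor array, and in Stat3wt the stroma and tumor arrays overlapped. Its difference was -0.66 ± 0.17 (SE) in Stat3dm and 0.11 ± 0.17 (SE) in Stat3wt, with adjusted p-values of 0.222 and 0.711.

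Genes for the fork and for nucleotides followed the same direction in 4 of 4 cases. Tyms, thymidylate synthase, which makes the DNA-specific base, read 7.17, 6.82 and 6.90 on the Stat3wt tumor arrays and 6.89, 6.78 and 6.79 on the Stat3dm tumor arrays. On the stroma side it read 6.68, 6.43 and 6.55 in Stat3wt stroma and 6.49, 6.52 and 6.40 in Stat3dm stroma. No stroma array reached any tumor array, and the 3 arrays of a group were close together. The averaged difference was -0.38 ± 0.12 (SE), a 1.3-fold lower signal in stroma, with an adjusted p of 0.103. Pcna, the sliding clamp that holds polymerase on the DNA, read 7.31, 7.07 and 7.52 on the Stat3wt tumor arrays and 6.68, 7.22 and 7.82 on the Stat3dm tumor arrays. The stroma arrays gave 6.65, 6.99 and 6.80 in Stat3wt stroma and 6.09, 6.56 and 6.97 in Stat3dm stroma. Stat3dm tumor 1 lay within the stroma range, and the other 5 tumor arrays lay above all stroma arrays. Over both genotypes the difference was -0.59 ± 0.20 (SE), adjusted p 0.112. Rrm1 and Rrm2, the subunits of ribonucleotide reductase, had averaged differences of -0.54 and -0.30, and neither passed.

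The 3 regulators of the step from G1 to S did not share a direction. Cdk2, the kinase of that step, had an averaged difference of -0.50 ± 0.20 (SE), and its partner cyclin E1 (Ccne1) one of -0.10 ± 0.13 (SE). E2f1, the activator of the first wave, read 5.49, 5.33 and 5.11 on the Stat3wt tumor arrays and 5.34, 5.46 and 5.49 on the Stat3dm tumor arrays. In stroma the signals were 5.66, 5.82 and 5.53 in Stat3wt stroma and 5.28, 5.40 and 5.37 in Stat3dm stroma. In Stat3wt all stroma arrays lay above all tumor arrays, against the direction of most other genes, and in Stat3dm the groups overlapped. The difference was 0.36 ± 0.18 (SE) in Stat3wt and -0.08 ± 0.18 (SE) in Stat3dm, and neither passed (adjusted p 0.311 and 0.953).

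The genes of the list of mitotic cyclins and kinases with Cdc25c and Foxm1 lay below 0 in 8 of 8 cases, with a median of -0.41. Cdk1, the kinase that drives entry into mitosis, read 6.24, 6.02 and 6.07 on the Stat3wt tumor arrays and 6.02, 6.52 and 7.27 on the Stat3dm tumor arrays. Stroma signals stood at 6.52, 6.25 and 5.98 in Stat3wt stroma and 5.49, 5.95 and 5.81 in Stat3dm stroma. The 3 Stat3dm tumor arrays lay above the 3 Stat3dm stroma arrays, and Stat3dm tumor 3 was well above the rest. Within Stat3wt, tumor and stroma overlapped. Its difference was -0.86 ± 0.28 (SE) in Stat3dm (adjusted p 0.32) and 0.14 ± 0.28 (SE) in Stat3wt (adjusted p 0.764). Aurkb, the kinase that corrects faulty spindle attachments, read 6.14, 6.18 and 5.93 on the Stat3wt tumor arrays and 5.42, 6.26 and 6.60 on the Stat3dm tumor arrays. Its signals were 6.51, 5.97 and 5.76 in Stat3wt stroma and 5.52, 5.64 and 5.72 in Stat3dm stroma. Tumor and stroma overlapped in either genotype, and the averaged difference was -0.23 ± 0.19 (SE). Plk1, which acts in spindle assembly, and Foxm1, a transcription factor of the second wave, had averaged differences of -0.57 ± 0.19 (SE) and -0.46 ± 0.16 (SE). Cyclin A2 (Ccna2) and cyclin B2 (Ccnb2) stood at -0.59 and -0.47.

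The spindle checkpoint delays the separation of chromosomes until every kinetochore is attached, and its 4 genes lay below 0 with a median of -0.23. Mad2l1, which codes for the checkpoint protein MAD2, read 5.25, 5.36 and 6.54 on the Stat3wt tumor arrays and 5.34, 5.23 and 6.15 on the Stat3dm tumor arrays. On the stroma side it read 4.98, 5.28 and 4.76 in Stat3wt stroma and 4.56, 4.64 and 5.24 in Stat3dm stroma. The averaged difference of -0.73 ± 0.24 (SE) was the widest of the 41 genes, and the 2 tumor arrays numbered 3 were far above the other 10 arrays. Its adjusted p was 0.103. Bub1, Bub1b and Ttk, kinases or kinase-like proteins of the same checkpoint, stood at -0.31, -0.14 and -0.12.

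Cdc20 and Ube2c belong to the anaphase-promoting complex pathway, which marks cyclin B and securin for destruction. Cdc20, the activator of that ligase, read 6.50, 6.41 and 6.41 on the Stat3wt tumor arrays and 6.50, 6.80 and 7.11 on the Stat3dm tumor arrays. The stroma arrays gave 6.33, 6.43 and 6.02 in Stat3wt stroma and 5.73, 5.62 and 6.44 in Stat3dm stroma. All Stat3dm tumor arrays lay above all Stat3dm stroma arrays, and in Stat3wt 1 stroma array lay among the tumor arrays. Its averaged difference came to -0.53 ± 0.17 (SE) (adjusted p 0.0976), made up of -0.87 ± 0.24 (SE) in Stat3dm and -0.18 ± 0.24 (SE) in Stat3wt. Ube2c, the ubiquitin-conjugating enzyme, read 6.69, 6.19 and 6.42 on the Stat3wt tumor arrays and 6.72, 6.76 and 7.15 on the Stat3dm tumor arrays. In stroma the signals were 6.41, 6.47 and 5.84 in Stat3wt stroma and 6.04, 6.53 and 6.52 in Stat3dm stroma. The Stat3dm groups did not overlap, and the averaged difference was -0.35 ± 0.17 (SE).

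Of the spindle motors and cytokinesis genes (Birc5, Kif11, Kif20a, Kif23 and Tpx2) all 5 lay below 0, with a median of -0.52. Kif20a, a kinesin of the midzone needed for cytokinesis, read 5.45, 5.33 and 5.73 on the Stat3wt tumor arrays and 5.21, 5.54 and 5.91 on the Stat3dm tumor arrays. Stroma signals stood at 4.79, 5.21 and 5.19 in Stat3wt stroma and 4.91, 4.97 and 5.16 in Stat3dm stroma. No stroma array reached a tumor array in either genotype, though Stat3wt stroma 2 came within rounding of Stat3dm tumor 1. Averaged over the genotypes it differed by -0.49 ± 0.15 (SE), adjusted p 0.0941. Kif11, the motor that pushes spindle poles apart, and Kif23, which bundles midzone microtubules, stood at -0.70 ± 0.23 (SE) and -0.64 ± 0.22 (SE). The 5 centromere and kinetochore genes (Cenpa, Cenpe, Cenpf, Nuf2 and Ndc80) lay lower by less, with a median of -0.23.

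Mki67, which coats mitotic chromosomes and is the usual histological mark of proliferation, read 6.82, 6.36 and 7.24 on the Stat3wt tumor arrays and 6.49, 6.50 and 7.29 on the Stat3dm tumor arrays. Its signals were 6.21, 6.31 and 6.06 in Stat3wt stroma and 6.25, 5.70 and 6.60 in Stat3dm stroma. The Stat3wt groups did not overlap, and Stat3dm stroma 3 lay above 2 of the 3 Stat3dm tumor arrays. The averaged difference was -0.60 ± 0.20 (SE) (95% interval -1.03 to -0.16), adjusted p 0.115. Top2a, the topoisomerase that untangles sister DNA, read 6.49, 6.34 and 6.55 on the Stat3wt tumor arrays and 5.98, 6.64 and 7.11 on the Stat3dm tumor arrays. On the stroma side it read 6.34, 6.09 and 5.64 in Stat3wt stroma and 5.76, 5.53 and 6.38 in Stat3dm stroma. Again the Stat3wt groups were apart, though barely, and the Stat3dm groups overlapped. Over both genotypes the difference was -0.56 ± 0.21 (SE), adjusted p 0.137.

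Within each genotype, with 3 arrays against 3, no gene of the array passed an adjusted p of 0.05 (0% of all genes in Stat3wt and 0% in Stat3dm). In Stat3wt 37 of 41 cell cycle genes lay below 0 in stroma, with a median of -0.32. The 3 stroma arrays lay below the 3 tumor arrays for 10 of 41 genes, against 15.0% of all genes: Foxm1, Kif20a, Mcm3, Mcm4, Mcm7, Mki67, Pcna, Rrm1, Top2a and Tyms. At an unadjusted p under 0.05, 1 of 41 genes, Tyms, was lower in Stat3wt stroma, against 11.6% of all genes, so this share was under the background. Without Stat3wt tumor 3 the median was -0.19. In Stat3dm all 41 lay below 0, with a median of -0.51, and 37 of 41 with a median of -0.31 without Stat3dm tumor 3. The groups were apart for 9 of 41 genes, against 7.16% of all genes: Ccnb2, Cdc20, Cdc6, Cdk1, Cenpa, Kif11, Kif20a, Tyms and Ube2c. At an unadjusted p under 0.05, 20 of 41 genes were lower in Stat3dm stroma, against 5.60% of all genes. With genotype and number as a block, the Stat3dm comparison gave 0 of 41 genes, the smallest adjusted p being 0.058, against 0.914% of all genes.

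**Figure D3:**
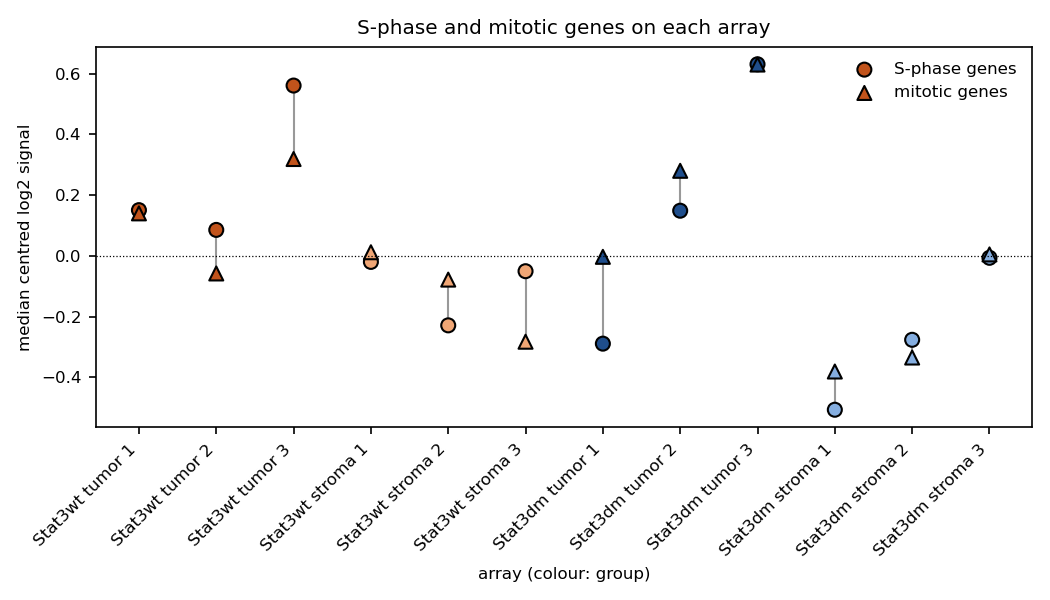
Median over the 15 S-phase genes (circles) and the 26 mitotic genes (triangles) of the centred log2 signal (vertical axis), on each of the 12 arrays (horizontal axis), coloured by group. The Stat3dm tumor arrays run from -0.29 to 0.63 for S-phase genes, so that 1 of them lies among the stroma arrays.

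The comparison of the genotypes in stroma is the one the study was set up for. Of 41 cell cycle genes 32 were lower in Stat3dm stroma than in Stat3wt stroma, with a median log2 difference of -0.12, while 52.8% of all genes lay below 0. None passed an adjusted p of 0.05 (0% of all genes did), and 0 reached an unadjusted p under 0.05, against 5.07% of all genes. The median rested on single arrays: it was -0.042 without Stat3dm stroma 1 and -0.068 without Stat3dm stroma 2, and -0.27 without Stat3dm stroma 3 and -0.21 without Stat3wt stroma 3. The 3 Stat3dm arrays lay below the 3 Stat3wt arrays for 6 of 41 genes, against 5.62% of all genes: Aurkb, Cdc6, Cdk1, Cenpa, E2f1 and Kif11. From the signals given above, Cdc6 differed by -0.36 ± 0.17 (SE) (95% interval -0.74 to 0.01). Cdk1 differed by -0.50 ± 0.28 (SE) (95% interval -1.09 to 0.09). Aurkb stood at -0.45 ± 0.28 (SE) and E2f1 at -0.32 ± 0.18 (SE), all with adjusted p-values near 1. Mki67 and Top2a, the usual marks of proliferation, stood at -0.01 (95% interval -0.63 to 0.61) and -0.13 (95% interval -0.76 to 0.50). Leukocyte markers lay the other way in these arrays, with a summed signal of 1371 to 1834 in Stat3dm stroma against 567 to 1088 in Stat3wt stroma. All 8 of them lay above 0 with a median of 1.03, none at an adjusted p under 0.05 and 8 at an unadjusted one, and their part in the cell cycle values was not tested.

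In tumor the medians of S-phase and mitotic genes lay on different sides of 0 between the genotypes. Of 15 S-phase genes 10 were lower in Stat3dm tumor, with a median of -0.06, whereas of 26 mitotic genes 7 were lower, with a median of 0.15. No member passed an adjusted p of 0.05, against 0.0180% of all genes (3 genes), and 1 of 41 members, Cdc6, reached an unadjusted p under 0.05, against 6.26% of all genes. With the number as a block, 0 of 41 members passed, the smallest adjusted p being 0.36, against 0.535% of all genes. All 3 Stat3dm arrays lay above all 3 Stat3wt arrays for 2 of 41 genes, Cdc6 and Ube2c, against 4.05% of all genes, so this share was near the background. Cdc6 differed by 0.41 ± 0.17 (SE) with an adjusted p of 0.751. Ube2c differed by 0.45 ± 0.24 (SE), Cdk1 by 0.50 ± 0.28 (SE) and Mcm3 by -0.26 ± 0.28 (SE), with adjusted p-values from 0.823 to 0.841. Without Stat3dm tumor 3 the median over the 41 genes turned from 0.046 to -0.13, and without Stat3wt tumor 2 to -0.033. Leaving out any other tumor array raised it, to between 0.078 and 0.24. Mcm3 turned to 0.039 without Stat3dm tumor 1.

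**Figure D4:**
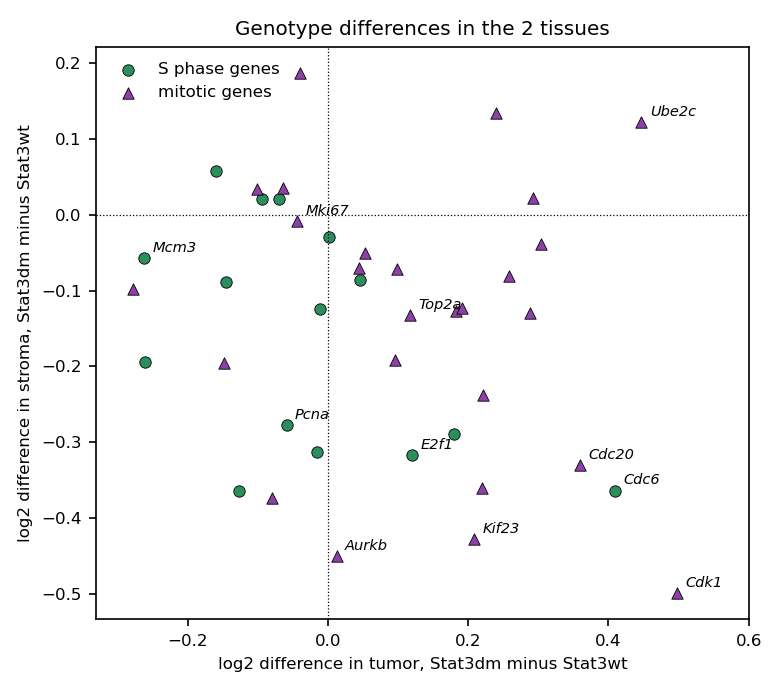
Log2 difference between the genotypes, Stat3dm minus Stat3wt, in tumor (horizontal axis) and in stroma (vertical axis) for the 15 S-phase genes (circles) and 26 mitotic genes (triangles). Points in the lower right, among them Cdc6, Cdk1, Cdc20 and Kif23, were higher in Stat3dm tumor and lower in Stat3dm stroma. None of the 41 passed an adjusted p of 0.05 on either axis.

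The interaction asks whether the genotype difference is the same in both tissues. It lay below 0 for 30 of 41 cell cycle genes, with a median of -0.24. All 8 genes of the list of mitotic cyclins and kinases with Cdc25c and Foxm1 were among them. No member passed, and 0% of all genes did. Cdk1 gave -0.996 ± 0.39 (SE), Cdc6 -0.77 ± 0.25 (SE) and Cdc20 -0.69 ± 0.34 (SE), with adjusted p-values of 0.995, 0.995 and 0.995. E2f1 gave -0.44 ± 0.25 (SE). At an unadjusted p under 0.05 there were 2 of 41 members, Cdc6 and Cdk1, against 2.41% of all genes. The median over the 41 genes rested on Stat3dm tumor 3, and was 0.018 without that array. It was -0.12 without Stat3wt tumor 2, -0.14 without Stat3wt stroma 1, -0.097 without Stat3dm stroma 2, -0.36 without Stat3dm stroma 3 and -0.40 without Stat3dm tumor 1.

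The gap between the medians of the genes classed as S-phase and as mitotic was taken on each array. In tumor the gap of S-phase minus mitotic genes was 0.01, 0.14 and 0.24 on the Stat3wt arrays. On the Stat3dm arrays it was -0.29, -0.13 and 0.0009. The groups did not overlap, but the nearest arrays lay at 0.011 and 0.0009, and the replicate SD of the gap was 0.14. In stroma the gap ran from -0.15 to 0.23 in Stat3wt and from -0.13 to 0.06 in Stat3dm, so that there the groups overlapped. Another measure is the median genotype difference of the S-phase genes minus that of the mitotic genes. In tumor it went from -0.21 to -0.044 once array spread entered the fit. The members were chosen with results in view, so these gaps carry no test.

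**Figure D5:**
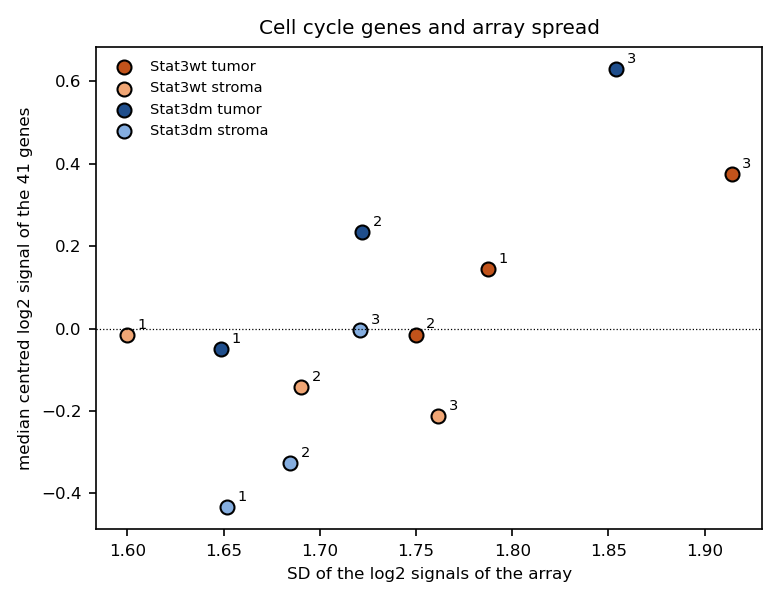
Median centred log2 signal of the 41 cell cycle genes (vertical axis) against the SD of all log2 signals of that array (horizontal axis), 1 point per array, numbered within its group. The 2 arrays of widest spread, Stat3wt tumor 3 and Stat3dm tumor 3, also have the 2 highest medians, 0.38 and 0.63.

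The 2 arrays of widest spread had the 2 highest medians of the cell cycle genes, 0.38 and 0.63, but not every group followed that order. In Stat3wt stroma the SD rose over 1.60, 1.69 and 1.76 on arrays 1, 2 and 3, while the median fell over -0.016, -0.14 and -0.21. Stat3dm tumor 3 was the highest of the 12 arrays for 28 of 41 cell cycle genes, against 11.7% of all genes. Stat3wt tumor 3 was highest for 7 of 41, against 27.7% of all genes. At the low end, Stat3dm stroma 1 was lowest for 14 of 41 and Stat3dm stroma 2 for 10 of 41, against 11.4% and 8.28% of all genes. With the spread as a covariate, 37 of 41 genes stayed below 0 in the averaged tissue comparison, with a median of -0.22. In Stat3wt alone 21 of 41 stayed below 0 with a median of -0.0067, and in Stat3dm 40 of 41 with a median of -0.40. Without the 2 widest arrays 39 of 41 lay below 0 in the averaged comparison, with a median of -0.27.

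Other genes of the same processes lay mostly on the same side. In the averaged tissue comparison 33 of 34 further replication genes lay below 0 in stroma, with a median of -0.25, and none passed an adjusted p of 0.05 (8 were lower at an unadjusted p under 0.05, against 15.1% of all genes). Rpa3, a subunit of the protein that coats single-stranded DNA, stood at -0.60 ± 0.18 (SE), adjusted p 0.0811. Of 37 further mitotic genes 34 lay below 0, with a median of -0.33, and 2 passed, against 2.55% of all genes. Cks2, a small partner of cyclin-dependent kinases, fell by 1.17 ± 0.23 (SE) on the log2 scale, with an adjusted p of 0.0294. Cks2 had 4 single-symbol probe sets and Rpa3 had 2, and only the brightest of each is given. Ect2, the exchange factor that starts cytokinesis, fell by 0.95 ± 0.23 (SE), with an adjusted p of 0.0445. Of 25 genes of the G1 cyclins, their kinases and the E2F and retinoblastoma families, 20 lay below 0 with a median of -0.29, and none passed (9 were lower at an unadjusted p under 0.05, against the same 15.1%). Myc, a growth factor-induced transcription factor, was nearest at -0.62 ± 0.16 (SE), adjusted p 0.0541, and Cdk4, the kinase of cyclin D, stood at -0.73 ± 0.22 (SE).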

How the data were processed

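Total RNA (50 ng) from laser-captured paraffin tissue was amplified, labelled and put on 1 Affymetrix array per sample, per the labels' protocols. The authors deposited log2 signals that per the submitters' processing notes were made by RMA in version 1.3.1 of Affymetrix Expression Console. No scanner files were used, so background and detection per probe were not examined, and the number of arrays limits the precision.

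Of 41345 probe sets, 25335 were listed with a gene, 23521 with 1 symbol and 1814 with several, and 16010 were unnamed here. Each of 22180 genes kept its single-symbol probe set of highest mean, and of the members only Rrm2 had a choice. The 25% of genes of lowest mean (below a log2 signal of 3.65) were left out. Group means of all 12 arrays were fitted with limma 3.58.1 (lmFit and eBayes) in R 4.3.3, after a check on simulated data, with 6 contrasts and Benjamini-Hochberg adjustment over 16635 genes in each. A call is an adjusted p under 0.05. No 2 arrays were identical. Centred signals are a gene's log2 signal minus its mean over the 12 arrays. The members and gene lists were chosen with earlier results of these data known. Values are printed per array for Mki67, Top2a, Pcna and, in each contrast, the 2 S-phase and 2 mitotic members of smallest p. Of other lists, the 3 genes of smallest p could be named.

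Replicate numbers may pair samples. Deviations from group means of same-numbered samples correlated by 0.12, 0.16 and 0.30 between Stat3dm tumor and stroma and by 0.32, 0.15 and 0.69 between tumors of the 2 genotypes, which are different mice. The correlations were 0.44, -0.0041 and 0.51 between Stat3wt tumor and stroma and 0.15, -0.04 and 0.11 between stroma of the 2 genotypes. Tumors of the 2 genotypes cannot be pairs of 1 mouse, so a correlation of same-numbered samples does not show a shared mouse. Blocked values are given beside the results as an alternative, and the labels do not state a pairing. Alternatives were quantile normalization, median centring, the array spread as a covariate, array weights, other filters, a mean over probe sets, replicate blocks, and leaving out arrays.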

Additional observations from a re-analysis of the deposited data

Results flagged for a closer look

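Cdc6 differed between the genotypes in opposite directions in the 2 tissues, with every Stat3dm array below every Stat3wt array in stroma and above every one in tumor. The interaction was -0.77 on the log2 scale, with an adjusted p of 0.995 (limma). Cdc6 was dimmer than the median gene, with a mean log2 signal of 4.47 (percentile 43.4 of all genes), and its detection was not examined. Groups apart in opposite directions in the 2 tissues, counted in either order, were seen in 33 of 16635 genes (0.198%) and in 1 of the 41 cell cycle genes.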

How the results depend on the processing

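The averaged median over the members stayed below 0 under each setting tried, and the number of calls moved. In the averaged comparison 425 genes were called, against 168 after median centring, 264 with the spread as a covariate, 3834 with array weights and 0 without the 2 arrays of widest spread, and 0 to 1296 when single arrays were left out. Its called members were 0, against 19 with array weights and 0 to 9 with single arrays left out. The highest counts came without Stat3dm tumor 1. Fewer than 10 genes were called without Stat3wt tumor 1, Stat3wt stroma 3, Stat3dm tumor 2, Stat3dm tumor 3 or Stat3dm stroma 2. Array weights, whose estimation stopped before its tolerance, gave 3963 genes and 5 members in Stat3wt, 727 and 4 in Stat3dm, 164 and 0 between genotypes in stroma, 1579 and 1 in tumor, and 4 and 0 for the interaction.

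Replicate blocks raised the averaged count to 2187 genes and 13 members (number, fixed), 1648 and 10 (genotype and number, random, correlation 0.23) or 1876 and 13 (genotype and number, fixed). In the same order they gave 304, 5 and 138 genes in Stat3wt and 86, 62 and 152 in Stat3dm, with no member. The block of number gave 28 genes between genotypes in stroma and 89 in tumor, with no member. The blocks changed no other call of a member.

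Quantile normalization called 39 genes in Stat3dm, 1 between genotypes in stroma and 1 in tumor, and the spread covariate 114, 13 and 14. Leaving out 50% of genes as dim called 5 in tumor. With single arrays left out, calls ranged from 0 to 8 in Stat3wt, 0 to 22 in Stat3dm, 0 to 2 between genotypes in stroma and 0 to 7 in tumor. The Stat3wt median over the members was -0.0067 with the spread covariate, and Mcm4 turned to 0.033. The gap between the median log2 differences of S-phase and mitotic genes in Stat3wt turned to 0.041 by quantile normalization and to 0.066 with the covariate. Between genotypes in tumor it was -0.044 with the covariate. With single arrays left out the gap ranged from -0.17 to 0.10 between genotypes in stroma, from -0.013 to 0.26 for Stat3dm tissues and from 0.047 to 0.35 for the interaction, whose member median ranged from -0.40 to 0.018. Mcm3 between genotypes in tumor turned to 0.054 with the covariate and ranged from -0.54 to 0.039. The cause was not tested in these cases. With 3 arrays a group and no blocks or array weights, no member was called in any comparison. With the same arrays, 19 members were called in the averaged comparison with array weights. The fixed block of genotype and number called 13 there. Whether the number of arrays limited the calls was not tested.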

Other observations

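Genes that hold the cycle back lay on both sides of 0. Of 17 tested CDK inhibitors and p53-linked arrest genes, 15 lay below 0 in Stat3wt stroma against tumor, with a median log2 difference of -0.26, and 6 lay below 0 in Stat3dm, with a median of 0.09. Between genotypes in stroma 13 of 17 lay above 0, with a median of 0.31, while the 41 cell cycle genes had a median of -0.12. Cdkn1b, which codes for the inhibitor p27, stood at 0.58 ± 0.24 (SE), and Cdkn2c, an inhibitor of CDK4 and CDK6, at 0.52 ± 0.20 (SE). Btg1, an antiproliferative gene that is abundant in lymphocytes, stood at 0.49 ± 0.19 (SE). None passed, with adjusted p-values from 0.869 to 0.919 for these 3 (limma), and 4 of the 17 reached an unadjusted p under 0.05, against 5.07% of all genes. The interaction lay above 0 for 15 of 17, with a median of 0.42, and 0 passed an adjusted p of 0.05 (1 at an unadjusted p, against 2.41% of all genes). Leukocyte markers were also higher in Stat3dm stroma, as given above, and their part in these values was not tested.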
